A study of Mus musculus with 9 samples.

Results

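Collagen processing and crosslinking enzymes are the proteins that turn a newly made collagen chain into a crosslinked fibre, and they were followed here in the mouse heart over 3 postnatal ages. The set was chosen by name from 10 listed genes, keeping probe sets that the platform annotation assigns to a single gene symbol and, per gene, the one with the highest mean signal. Of the 10 genes 9 had such a probe set (Lox, Loxl1, Pcolce, Pcolce2, P4ha1, P4ha2, Plod1, Plod2 and Serpinh1), among 19938 genes tested in all. Loxl2 was not followed because its probe set carries a further symbol, Gm21451. Each of the 9 genes had exactly 1 such probe set, and all 9 had a mean that entered the fit without any filter on low signal.

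The study measured total RNA of heart, labelled cardiac muscle, from C57BL/6 mice aged 24 hours, 7 days and 10 weeks, with 3 Affymetrix Mouse Gene 1.0 ST arrays per age and no treatment or genetic change. A value is a log2 signal, so a difference of 1 is a doubling, and a signal of one probe set cannot be set against that of another. Differences were tested with limma over all 19938 genes, and a gene was called at a Benjamini-Hochberg adjusted p under 0.05. Nothing in the labels ties replicate arrays to different animals. P-values therefore measure only the spread between these samples, which may be technical in part. Arrays of the same age also differed in fat, atrial and sex-linked signals, given below. The 10 cardiomyocyte markers averaged 12.24 to 12.34 on the 9 arrays, but single markers moved in both directions. At 10 weeks against 24 hours 3 of the 10 were called higher and 4 lower.

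Collagen chains are modified in the endoplasmic reticulum before they fold into a triple helix. Prolyl 4-hydroxylases make hydroxyproline, which stabilises the helix, lysyl hydroxylases prepare the lysines that later carry crosslinks, and the chaperone encoded by Serpinh1 binds the folded procollagen. After secretion, proteinases trim the ends of procollagen with the help of the enhancers encoded by Pcolce and Pcolce2, and lysyl oxidases then start the covalent crosslinks of collagen and elastin. In the heart most of this work is done by fibroblasts and, in vessels and valves, by smooth muscle and interstitial cells.

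Arrays differed in ways that touch the results. The 7-day replicates 2 and 3 carried transcripts of brown fat, with Ucp1 at 4.30, 11.23 and 9.27 on the 7-day replicates 1, 2 and 3 and at most 4.27 elsewhere. The 6 atrial markers averaged 9.22 to 9.78 on the 24-hour arrays, 9.76 to 10.19 on the 7-day arrays and 6.75 to 8.02 on the 10-week arrays. The Y-linked gene Eif2s3y measured 6.28 to 7.70 on the 24-hour arrays, 6.06 to 7.60 on the 7-day arrays and 2.87 to 3.30 on the 10-week arrays, while Xist, which marks female cells, measured 8.26 to 9.56 on all 9. Every 24-hour and 7-day array thus gave signal for both Eif2s3y and Xist, as RNA of both sexes would, while Eif2s3y was low at 10 weeks. The mix of sexes, by Eif2s3y, and the level of the atrial markers therefore differ along with age in every comparison with 10 weeks. Neither can be told apart from age there, and whether the atrial markers follow the amount of atrial tissue was not tested. On 7-day replicates 1, 2 and 3 Eif2s3y measured 7.60, 6.26 and 6.06, and Xist 8.26, 9.56 and 9.25. Leaving out replicates 2 and 3 therefore changes the sex-linked signals at 7 days as well as the fat transcripts. For the 9 genes, the calls below that were lost without 7-day replicates 2 and 3 are stated beside the results. Replicate 1 is then the only 7-day array and is assumed to vary like the other groups.

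The 9 genes split into opposite directions after 7 days. Between 7 days and 10 weeks 6 of them fell (Lox, Loxl1, Pcolce, Plod1, Plod2 and Serpinh1) and 3 rose (P4ha1, P4ha2 and Pcolce2), so every one of the 9 was called, against 35.9% of all tested genes (18.9% lower, 17.0% higher). Between 24 hours and 7 days 4 rose (Pcolce2, Loxl1, P4ha1 and Serpinh1) and the other 5, also with positive differences, did not pass, against 10.1% of all tested genes called (5.27% higher, 4.81% lower). Without 7-day replicates 2 and 3 only 1 of the 9, Pcolce2, was called in this step (higher by 2.35, adjusted p = 0.00163), and the differences of Lox (-0.28) and Plod2 (-0.046) turned negative. Between 24 hours and 10 weeks 5 fell and 3 rose, and Plod1 alone was not called, against 40.1% of all genes called (20.6% lower, 19.5% higher). The direction was as stated with each array centred on its median and after quantile normalization, and all counts of the 9 genes stayed the same there. Over all genes, centring changed the split of calls to 888 higher and 1247 lower at 7 days against 24 hours (1050 and 959 as deposited), and to 5247 higher and 3307 lower at 10 weeks against 7 days (3388 and 3777 as deposited).

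**Figure D1:**
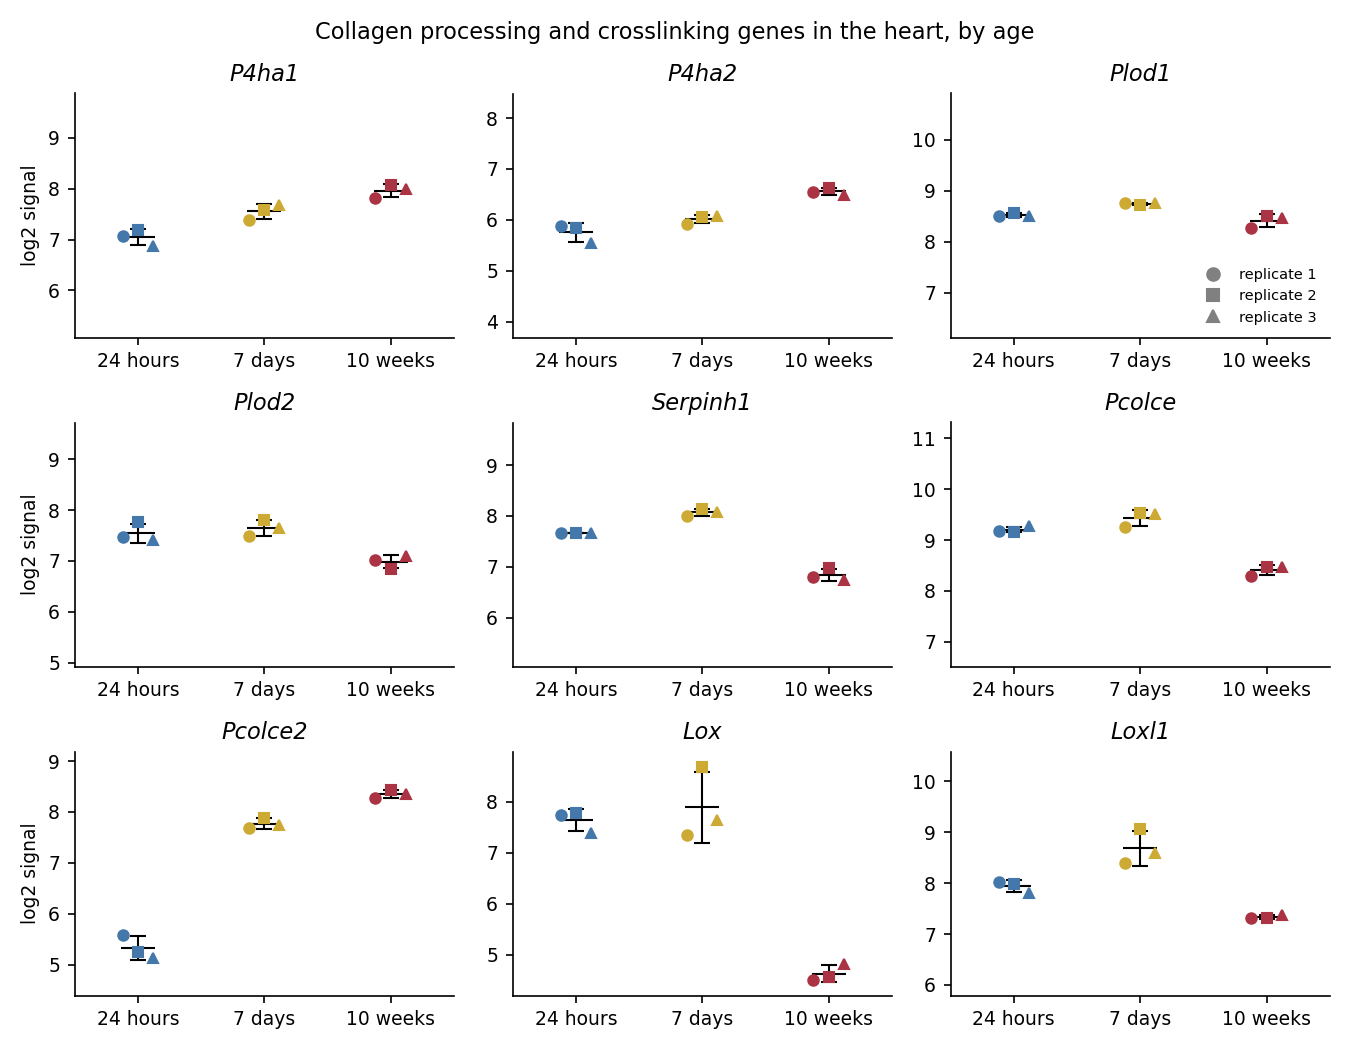
Log2 signal (vertical axis, 4.8 units in every panel) of the 9 genes on each of the 9 arrays at 24 hours, 7 days and 10 weeks. Symbols mark replicates, and bars give the mean and SD of the 3 arrays of an age. P4ha1, P4ha2 and Pcolce2 sit highest at 10 weeks, and the other 6 genes have their highest mean at 7 days and their lowest at 10 weeks.

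P4ha1 and P4ha2 encode catalytic subunits of collagen prolyl 4-hydroxylase. P4ha1 measured 7.07, 7.19 and 6.88 at 24 hours, 7.39, 7.59 and 7.69 at 7 days and 7.83, 8.06 and 8.00 at 10 weeks. No array of an older age fell to the level of a younger one, and the 3 groups did not overlap. The log2 difference was 0.51 ± 0.10 (SE, n = 3 arrays per age) at 7 days over 24 hours (adjusted p = 0.0108) and 0.41 ± 0.10 at 10 weeks over 7 days (adjusted p = 0.00946). Over the whole span P4ha1 was 1.89-fold higher at 10 weeks than at 24 hours (adjusted p = 3.74e-05). The first step did not pass without 7-day replicate 3, where the difference was 0.44 and the adjusted p 0.0549, nor without 7-day replicates 2 and 3 (0.34, adjusted p = 0.301).

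P4ha2 measured 5.89, 5.84 and 5.54 at 24 hours, 5.92, 6.06 and 6.07 at 7 days and 6.55, 6.62 and 6.50 at 10 weeks. The 10-week arrays stood clear of the rest, while the 7-day arrays lay just above the 24-hour ones. The first step, 0.26 ± 0.09, did not pass (adjusted p = 0.123), and the second, 0.54 ± 0.09, did (adjusted p = 9.27e-04). At 10 weeks P4ha2 was 1.74-fold higher than at 24 hours (adjusted p = 4.84e-05). Its signal lay close to 5.57, the median over all tested genes, and such dim signals can understate a change.

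Over the same span the genes of the other subunits of the enzyme moved downward. P4ha3, a further catalytic subunit, measured 7.49, 7.65 and 7.59 at 24 hours, 6.90, 7.16 and 6.90 at 7 days and 4.25, 4.67 and 4.58 at 10 weeks. It fell by 0.59 in the first step (adjusted p = 0.00869) and by 2.49 in the second (adjusted p = 1.08e-07) on the log2 scale. P4hb, the protein disulfide isomerase that serves as beta subunit, averaged 9.57 ± 0.06 at 10 weeks and 10.05 ± 0.13 at 7 days (SD, n = 3) and fell by 0.49 (adjusted p = 2.28e-04); it was named here for its role after its values were seen.

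The promoters of P4ha1 and P4ha2 are shown because both genes rose together and both encode enzymes known as targets of hypoxia-inducible factors. They come from RefSeq (GRCm38.p6), span 250 bases before to 50 bases after a start site, and run 5′ to 3′ along the gene; the P4ha1 window starts from a start site inside the annotated gene. Capitals mark the hypoxia response core, ACGTG or GCGTG, on either strand. P4ha1 lies at chr10:59323046-59323345 (plus strand) and P4ha2 at chr11:54100674-54100973 (plus strand).
P4ha1 promoter: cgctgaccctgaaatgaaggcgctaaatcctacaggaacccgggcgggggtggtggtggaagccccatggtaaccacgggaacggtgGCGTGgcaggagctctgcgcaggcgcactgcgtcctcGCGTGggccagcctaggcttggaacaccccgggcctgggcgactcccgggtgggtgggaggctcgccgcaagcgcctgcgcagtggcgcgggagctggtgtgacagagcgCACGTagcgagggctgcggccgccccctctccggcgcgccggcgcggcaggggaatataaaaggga
P4ha2 promoter: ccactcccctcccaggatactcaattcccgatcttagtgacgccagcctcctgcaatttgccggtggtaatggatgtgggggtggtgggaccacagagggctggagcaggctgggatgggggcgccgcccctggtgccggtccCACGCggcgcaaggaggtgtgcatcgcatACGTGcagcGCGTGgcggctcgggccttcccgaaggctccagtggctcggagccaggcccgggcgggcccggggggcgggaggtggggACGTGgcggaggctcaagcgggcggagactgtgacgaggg
The P4ha1 window holds 3 cores, at -163 and -126 (GCGTG) and at -16 (ACGTG, as CACGT on the opposite strand), counted from +1 at the start site. The P4ha2 window holds 4, at -107 (GCGTG, as CACGC on the opposite strand), -78 (ACGTG), -69 (GCGTG) and 11 (ACGTG). Among all 32851 RefSeq promoters, at least 3 such cores stand in 8.93% and at least 4 in 3.86%, with matches on both strands counted separately. Both windows are 70.3% G or C, against a median of 52.7% over all promoters. Promoters were at hand for 6 of the 10 listed genes, and the other 4 windows held 2 cores (Plod1), 1 (Serpinh1), 1 (Pcolce) and 0 (Pcolce2). At least 1 core stands in 43.8% of all promoters, so these matches are a description of the letters.
The heat shock element GAANNTTC occurs in the Plod1 window at 43 and in 7.86% of all promoters. The TATA box TATAAA occurs in the windows of P4ha1, at 40, and Plod1, at -232 on the opposite strand, and in 13.6% of all. The endoplasmic reticulum stress element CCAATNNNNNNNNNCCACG stood in none of the 6 windows and in 0.119% of all, and all 3 motifs were searched on both strands.

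Other genes known to be induced by hypoxia were looked at beside these. Of 15 such genes 7 were higher and 3 lower at 10 weeks than at 7 days, with a list median of 0.08 against 0.04 over all tested genes. Egln1, an oxygen-sensing prolyl hydroxylase, rose by 1.26, the mitophagy gene Bnip3 by 1.25, Egln3 by 0.61 and the glucose transporter gene Slc2a1 by 0.59. The 3 that fell, outside the naming rule, were Adm, Kdm3a and Ero1a. Only 1 fell without 7-day replicate 2 (list median 0.23) or with centred arrays, and 3 fell without 7-day replicate 1 or without 10-week replicate 2. Without 7-day replicates 2 and 3 the list median was 0.20, and the falls of Adm, Kdm3a and Ero1a did not keep their calls. In the first week, when P4ha1 rose, 3 of the 15 were higher and 4 lower. Aldoc stood at -1.70 and Slc2a1 at -0.99 there, against Ankrd37 at 0.72. The first-week list median was -0.07 without 7-day replicates 2 and 3, and not all of these calls were kept. At 10 weeks against 24 hours 6 were higher and 4 lower, with Slc2a1, outside the naming rule, at -0.40. The part of hypoxia in the rises of P4ha1 and P4ha2 was not tested.

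Plod1 and Plod2 encode lysyl hydroxylases. Plod1 measured 8.51, 8.56 and 8.50 at 24 hours, 8.76, 8.73 and 8.75 at 7 days and 8.27, 8.51 and 8.46 at 10 weeks. The 7-day arrays lay above all others by a narrow margin, and the 10-week and 24-hour arrays overlapped. Plod1 fell by 0.34 at 10 weeks against 7 days (log2 difference -0.34 ± 0.06, adjusted p = 0.0021). Its difference in the first week, 0.22 ± 0.06, did not pass over all 9 arrays (adjusted p = 0.0602), but passed without 10-week replicate 1 (0.0200) or 10-week replicate 2 (0.0431), and with only the 6 arrays compared (0.0136). Between 10 weeks and 24 hours the difference was -0.11 with a 95% interval of -0.26 to 0.03 (adjusted p = 0.195).

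Plod2, whose product prepares the chain ends for the stable pyridinoline type of crosslink, measured 7.46, 7.76 and 7.41 at 24 hours, 7.50, 7.80 and 7.64 at 7 days and 7.02, 6.84 and 7.09 at 10 weeks. The 10-week arrays were the lowest, and the younger ages overlapped. Plod2 fell by 0.66 at 10 weeks against 7 days (log2 difference -0.66 ± 0.11, adjusted p = 7.95e-04) and by 0.56 against 24 hours (adjusted p = 0.00203). Without 7-day replicates 2 and 3 the difference from 7 days was -0.51 and did not pass (adjusted p = 0.0539). The first-week difference was 0.10 with a 95% interval of -0.14 to 0.35 (adjusted p = 0.715).

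Serpinh1 encodes the collagen-specific chaperone of the endoplasmic reticulum. It measured 7.67, 7.67 and 7.66 at 24 hours, 8.00, 8.13 and 8.08 at 7 days and 6.81, 6.97 and 6.74 at 10 weeks. The 24-hour replicates 1 and 2 both stood at 7.67031, and the 24-hour SD was only 0.006. The 3 ages did not overlap, with the peak at 7 days. It rose by 0.41 ± 0.07 in the first week (adjusted p = 0.00387) and fell by 1.23 between 7 days and 10 weeks (log2 difference -1.23 ± 0.07, a 2.35-fold fall, adjusted p = 3.39e-07). The first-week rise did not pass without 7-day replicates 2 and 3 (0.34, adjusted p = 0.153). Serpinh1 and Loxl1 were the 2 of the 9 genes called higher and then lower, a course found in 1.80% of all tested genes; P4ha1 and Pcolce2 were the 2 called higher in both steps, found in 2.03%.

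Pcolce and Pcolce2 encode related enhancers of the proteinase that removes the carboxy-terminal propeptide of procollagen. Pcolce measured 9.19, 9.17 and 9.27 at 24 hours, 9.25, 9.53 and 9.51 at 7 days and 8.30, 8.46 and 8.47 at 10 weeks. The 10-week arrays lay below all others, and the younger ages overlapped. Pcolce fell by 1.02 at 10 weeks against 7 days (log2 difference -1.02 ± 0.08, a 2.02-fold fall, adjusted p = 4.51e-06). Its first-week difference of 0.22 ± 0.08 did not pass (adjusted p = 0.138), but was 0.31 and passed without 7-day replicate 1 (adjusted p = 0.0277).

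Pcolce2 ran the other way after 7 days. It measured 5.59, 5.25 and 5.14 at 24 hours, 7.68, 7.89 and 7.74 at 7 days and 8.27, 8.44 and 8.36 at 10 weeks. The 24-hour arrays stood more than 2 log2 units below all others, and no groups overlapped. The first-week rise, 2.45 ± 0.11 (5.45-fold, adjusted p = 2.77e-06), was larger than that of any other of the 9 genes, and a further rise of 0.58 ± 0.11 followed by 10 weeks (adjusted p = 0.00169). The total at 10 weeks was 8.16-fold over 24 hours (adjusted p = 1.45e-08). The 24-hour values lie near or below the median of all genes, so the first step may be understated.

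Promoter windows of both enhancers are shown for their opposite courses. Pcolce2 lies at chr9:95637378-95637677 (plus strand) and Pcolce at chr5:137611355-137611654 (minus strand), the Pcolce window starting from a start site inside the annotated gene. Capitals mark the same hypoxia response cores as above.
Pcolce2 promoter: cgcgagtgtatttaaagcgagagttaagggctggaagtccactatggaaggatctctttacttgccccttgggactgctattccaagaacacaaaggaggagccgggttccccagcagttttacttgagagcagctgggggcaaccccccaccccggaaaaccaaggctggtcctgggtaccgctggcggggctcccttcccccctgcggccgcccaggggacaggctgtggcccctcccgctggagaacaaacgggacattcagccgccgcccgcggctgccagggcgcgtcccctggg
Pcolce promoter: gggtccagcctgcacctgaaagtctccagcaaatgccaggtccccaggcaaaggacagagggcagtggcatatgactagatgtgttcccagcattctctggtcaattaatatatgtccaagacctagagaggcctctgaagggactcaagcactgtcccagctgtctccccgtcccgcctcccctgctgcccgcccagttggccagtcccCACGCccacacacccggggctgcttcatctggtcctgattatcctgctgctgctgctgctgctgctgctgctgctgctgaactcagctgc
Neither window holds a TATAAA box on either strand, and the Pcolce2 window has no marked core.

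**Figure D2:**
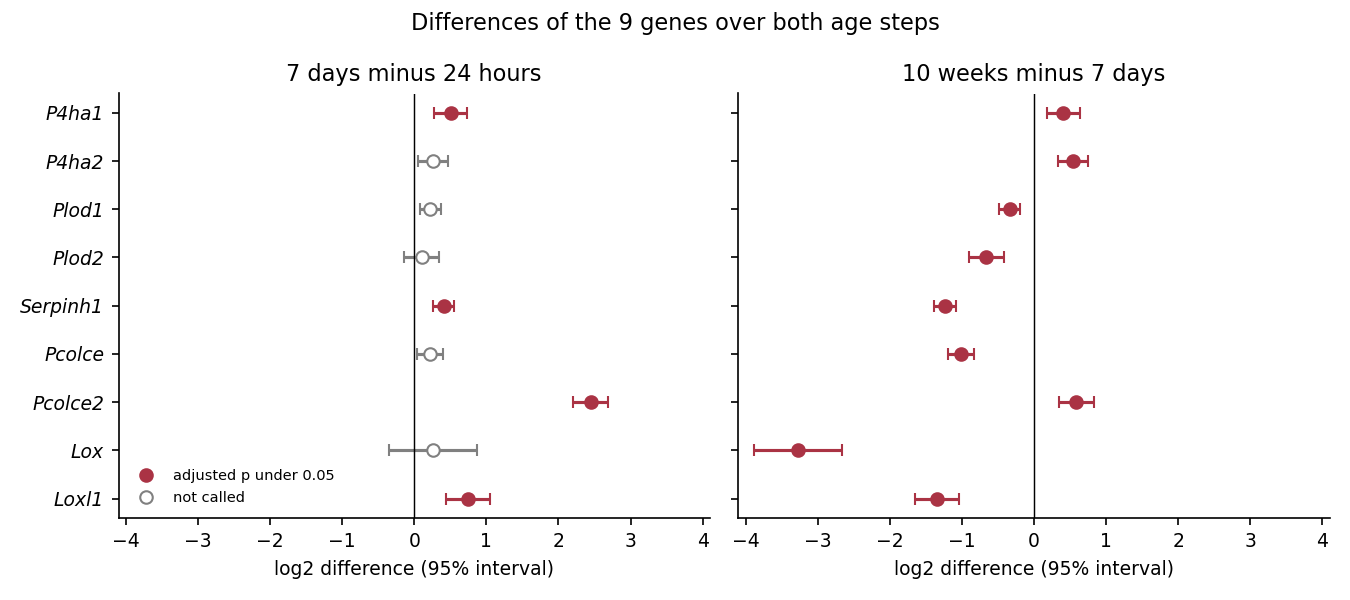
Log2 difference of each of the 9 genes at 7 days minus 24 hours (left) and at 10 weeks minus 7 days (right), with 95% intervals from the limma fit. Filled points passed an adjusted p of 0.05: 4 genes rose in the first step, and 3 rose and 6 fell in the second, with Lox at -3.27 the farthest from 0.

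Lox and Loxl1 encode lysyl oxidases, copper-dependent enzymes that oxidise lysines of collagen and elastin; Loxl1 is best known for elastic fibres. Lox measured 7.75, 7.78 and 7.39 at 24 hours, 7.36, 8.68 and 7.65 at 7 days and 4.51, 4.56 and 4.81 at 10 weeks. The 10-week arrays lay more than 2 log2 units below every younger array, while the younger ages overlapped and 7-day replicate 2 stood high. The difference was -3.27 ± 0.27 at 10 weeks against 7 days, a 9.65-fold fall (adjusted p = 6.44e-06), and -3.02 ± 0.27 against 24 hours. The first-week difference, 0.25 ± 0.27, did not pass (adjusted p = 0.715) and turned to -0.14 without 7-day replicate 2. Because the 10-week signal lies below the median of all genes, the fall may be understated.

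Loxl1 measured 8.03, 7.99 and 7.81 at 24 hours, 8.40, 9.06 and 8.59 at 7 days and 7.32, 7.32 and 7.38 at 10 weeks. The 3 ages did not overlap, and 7-day replicate 2 was again the highest. Loxl1 rose by 0.74 ± 0.14 in the first week (adjusted p = 0.00699) and fell by 1.35 between 7 days and 10 weeks (log2 difference -1.35 ± 0.14, adjusted p = 2.69e-05). Without 7-day replicates 2 and 3 the first-week difference was 0.46 and did not pass (adjusted p = 0.0635). At 10 weeks Loxl1 was lower than at 24 hours (log2 difference -0.60, adjusted p = 0.00517).

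Values of different ages often did not overlap. The groups were separate for 6 of 9 genes at 7 days against 24 hours (27.1% of all tested genes), for 9 of 9 at 10 weeks against 7 days (44.3%) and for 8 of 9 at 10 weeks against 24 hours (48.2%). The median log2 difference of the 9 genes was 0.26, -0.66 and -0.56 in these comparisons, against -0.0017, 0.04 and 0.04 over all genes, but a median of genes that move both ways describes neither direction. The comparisons share arrays, so their values are given side by side only.

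Related genes were then compared directly, as the difference between them on each array, with an exact permutation test of that difference over the 3 ages. Of 6 planned pairs 4 could be tested, since those with Loxl2 were not, and p-values were adjusted over the 4. Pcolce2 and Pcolce parted most: the change of Pcolce2 exceeded that of Pcolce by 2.23 ± 0.14 (SE, n = 3 arrays per age) in the first week and by 1.60 ± 0.14 in the second step (exact permutation p = 0.00357, the smallest that the design allows, adjusted p = 0.0143). Loxl1 and Lox differed as well (exact permutation p = 0.00714, adjusted p = 0.0143), and from 7 days to 10 weeks Lox changed by 1.93 ± 0.19 more than Loxl1, both downward.

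The remaining pairs were not told apart at this threshold. For P4ha2 and P4ha1 the exact permutation p was 0.075 (adjusted p = 0.075), and over the whole span the change of P4ha2 minus that of P4ha1 was -0.12 with a 95% interval of -0.31 to 0.08. For Plod2 and Plod1 the exact permutation p was 0.0429 (adjusted p = 0.0571), and over the whole span the change of Plod2 minus that of Plod1 was -0.44 with an interval of -0.81 to -0.08. Without 10-week replicate 1 both passed, with adjusted p of 0.0238 for the prolyl and 0.0393 for the lysyl hydroxylases; without 7-day replicate 2 the lysyl pair passed (0.0429), and after quantile normalization the prolyl pair did (0.0286).

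**Figure D3:**
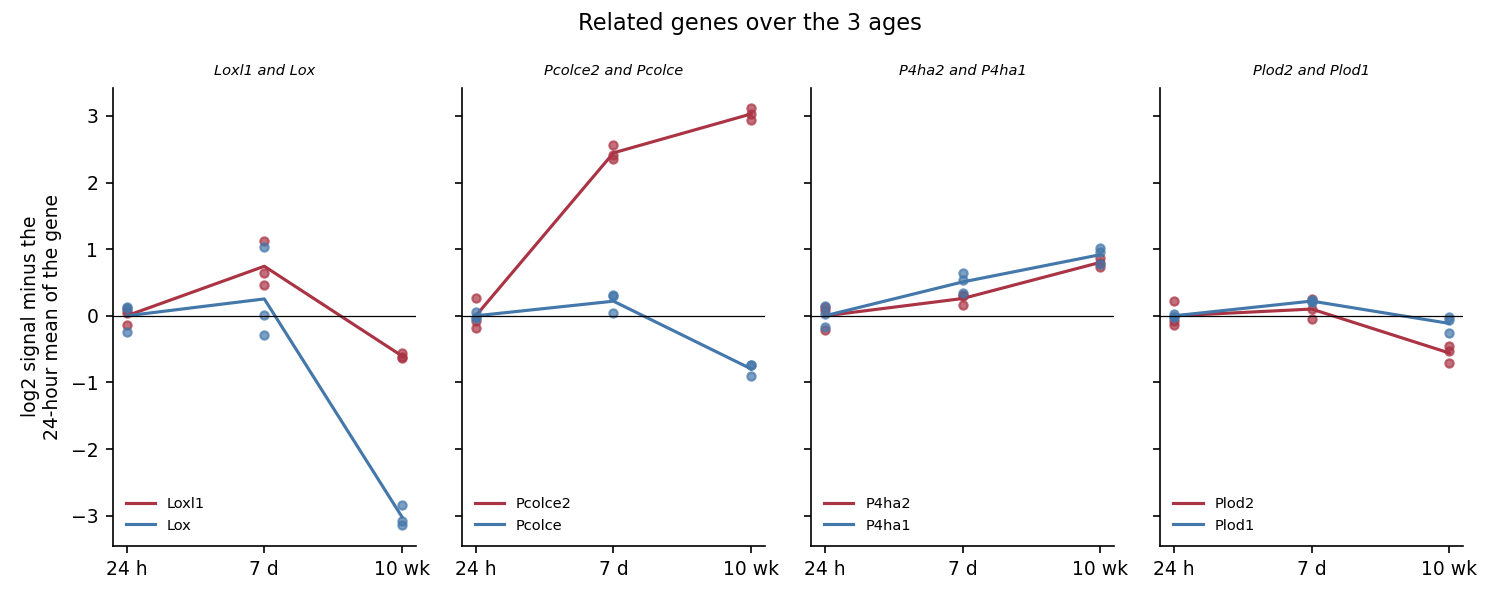
Log2 signal of related genes minus each gene's own 24-hour mean, at 24 hours, 7 days and 10 weeks; points are arrays and lines join the means. Pcolce2 rises by 3.03 while Pcolce falls, Lox falls farther than Loxl1, and the lines of P4ha2 and P4ha1 run close together.

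Around the 9 genes, 28 of 30 other genes of collagen modification, processing and export were tested. At 10 weeks against 7 days 19 of the 28 fell and 2 rose, with a list median of -0.39; without 7-day replicates 2 and 3 13 fell and 2 rose. P4ha3 led the falls, followed by Sparc, which encodes a collagen-binding matrix protein (by 1.64 on the log2 scale), Bmp1, the procollagen C-proteinase that Pcolce and Pcolce2 assist (by 1.17), and Creb3l1, a transcription factor of the secretory pathway (by 1.09). Bmp1 measured 7.07, 7.23 and 7.21 at 10 weeks, against 8.15, 8.51 and 8.35 at 7 days, without overlap. The 2 that rose were Tmem38b, a channel of the endoplasmic reticulum, by 0.82, and Tgm2, a transglutaminase, by 0.52; they were named as the only rises after their values were seen. In the first week 4 of the 28 rose and 3 fell (2 rose without any 1 of the 24-hour arrays or without 7-day replicate 3, and 1 rose and 1 fell without 7-day replicates 2 and 3), among them Colgalt2, a collagen galactosyltransferase, which rose by 0.69, P3h2, a prolyl 3-hydroxylase, which fell by 0.79, and Tgm2, which fell by 0.69. Smaller first-week rises outside the naming rule were those of Bmp1 (0.40), Sparc (0.29) and the prolyl isomerase gene Fkbp7 (0.26). Bmp1 measured 7.94 on each 24-hour array, with identical values in the deposited table. At 10 weeks against 24 hours 18 fell and 2 rose, with P3h1, another prolyl 3-hydroxylase, down (it fell by 0.85) and Tmem38b up by 0.92. Colgalt2, outside the rule, was up by 0.84.

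Genes of the substrates mostly fell as well. Of 17 collagen and elastin genes 15 fell and 1 rose at 10 weeks against 7 days, with a list median of -1.39. The elastin gene Eln fell by 4.13. The fibrillar collagen genes followed: Col1a1 fell by 3.02, Col3a1 fell by 2.90 and Col1a2 fell by 2.54. Col8a1, a short-chain collagen, rose by 1.45 and measured 7.31, 7.46 and 7.56 at 10 weeks, against 5.86, 6.29 and 5.84 at 7 days; it was named as the only rise of the list. In the first week 6 of the 17 rose, with Col15a1 up by 1.22, Col14a1 by 0.94 and Col3a1 by 0.85. That count was 11 without 7-day replicate 1 and 1 without 7-day replicates 2 and 3, and 1 gene fell without 7-day replicate 2.

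**Figure D4:**
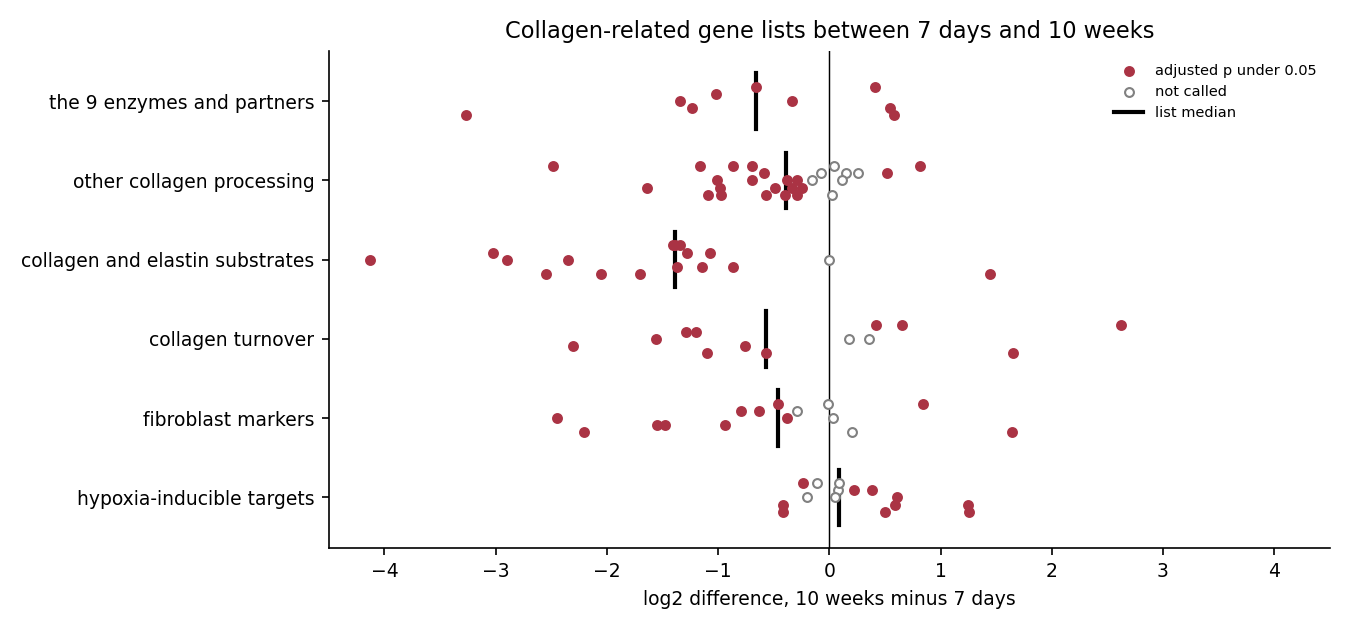
Log2 difference at 10 weeks minus 7 days (horizontal axis) of each tested gene in 6 lists; filled points passed an adjusted p of 0.05, open points did not, and vertical bars are list medians. The collagen and elastin genes have the lowest median (-1.39), and the 9 enzymes and partners lie on both sides of 0.

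Markers of the cells that make collagen moved too. The 15 fibroblast markers averaged 8.10 to 8.28 at 24 hours, 8.66 to 8.86 at 7 days and 8.14 to 8.31 at 10 weeks, but single markers moved in both directions. At 10 weeks against 24 hours 7 of the 15 rose and 4 fell (median 0.25): Gsn rose by 1.54 and Pi16 by 1.35, Cdh11 fell by 2.48 and Postn fell by 2.11 on the log2 scale. At 10 weeks against 7 days 9 of the 15 fell and 2, Gsn and Scara5, rose (median -0.47), with 7 lower without 7-day replicates 2 and 3, and in the first week 8 rose and the other 7 did not pass (median 0.69); 5 rose without 7-day replicates 2 and 3. In bulk RNA fewer fibroblasts and less RNA per fibroblast cannot be told apart, and the part of cell composition in the results was not tested.

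Of the 11 smooth muscle and great vessel markers 4 rose and 3 fell at 10 weeks against 7 days. Their mean was 8.00 to 8.02 at 24 hours and 8.01 to 8.11 at 10 weeks. On 7-day replicates 1, 2 and 3 it was 7.90, 8.51 and 8.23. Eln followed the same order, at 9.70, 11.44 and 10.28, and so did Lox, Loxl1, Pcolce, Pcolce2, Plod2 and Serpinh1 among the 9 genes, and the mean levels of the fat, atrial, fibroblast, macrophage, tendon and substrate lists. Without 7-day replicates 2 and 3, 3 of the 9 still rose and 5 fell at 10 weeks against 7 days, with Lox at -2.73 and Loxl1 at -1.06; the remaining gene was Plod2.

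**Figure D5:**
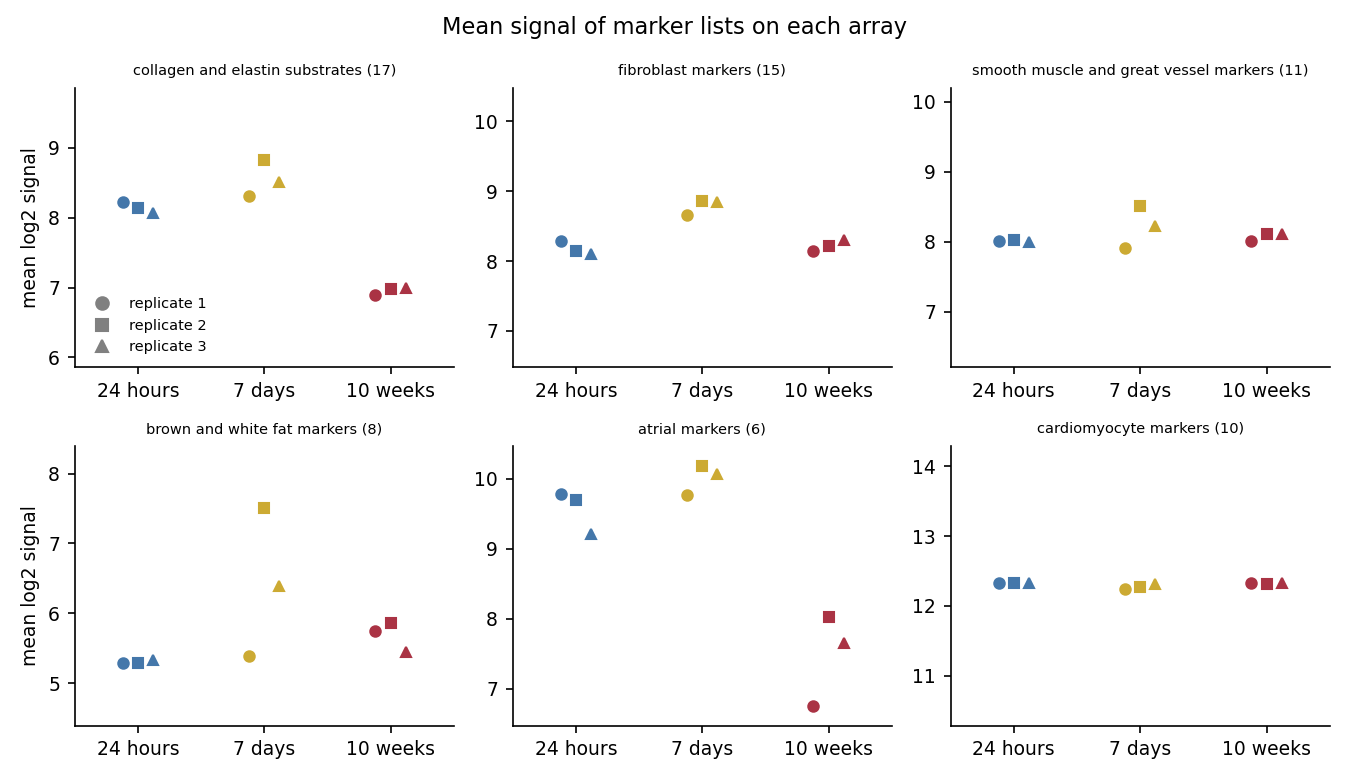
Mean log2 signal (vertical axis, 4 units in every panel) of 6 gene lists on each array by age, with the number of genes in parentheses and symbols for replicates. Fat markers stand high on 7-day replicates 2 and 3, and atrial markers are lower at 10 weeks. The mean of the cardiomyocyte markers stays within 12.24 to 12.34, while single ones were called higher or lower at 10 weeks against 24 hours.

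Genes with the most similar course were taken from 1916 genes with a signal above the median and a range of at least 1 log2 unit, by Pearson's r over the 9 arrays, which fall into 3 ages. The course of Serpinh1 was closest to that of Anxa2 (r = 0.998), which encodes an annexin, and Pcolce2 was closest to Cygb (0.997), the cytoglobin gene. Lox was closest to Rbms3 (0.995), with the collagen gene Col5a2 in the third place (0.993), and Pcolce to Alg8 (0.994), with Col1a1 in the third place (0.992). Loxl1 was closest to Antxr1 (0.995), a collagen-binding receptor gene. The closest gene to P4ha1 was Csf1r (0.976), the receptor of macrophage colony-stimulating factor, and the closest to P4ha2 was F13a1 (0.984), a coagulation transglutaminase of macrophages. Plod1 was closest to Lepr (0.954) and Plod2 to Mier3 (0.967). These values describe the likeness of courses only.
The 10 macrophage markers averaged 6.78 to 6.95 at 24 hours, 7.22 to 7.36 at 7 days and 8.14 to 8.31 at 10 weeks, in the same order as P4ha1 and P4ha2, and their part in those results was not tested.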

How the data were processed

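Heart RNA of 9 mouse arrays was analysed. The deposited table holds log2 intensities for 35556 features, and the submitters' processing notes name MAS5 5.0 without its role. Whether it or another method summarised the probes and scaled the arrays is not given in the sources used here. Array medians lie within 0.048 of each other over all features and within 0.075 over the tested genes, and log2 values were used as the authors deposited them. The table has no detection flags, and the number of arrays limits the precision. Platform symbols were updated by Entrez id through RefSeq for 21698 of 21789 features with 1 symbol; 1621 features carry several symbols and 12146 are not listed. The feature with the highest mean stood for each gene.

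A model with 1 mean per age was fitted with limma 3.58.1 in R 4.3.3 (eBayes with an intensity trend). Pairs of related genes were tested by exact permutation of the 9 arrays over the ages, in Python 3.11.15 with numpy 2.4.6. On simulated data for 19938 genes, 73%, 74% and 82% of genes changed by 0.5 (log2) and 95%, 96% and 99% of those changed by 1 were found, in the order 7-day over 24-hour, 10-week over 7-day and 10-week over 24-hour, and 6.15%, 3.95% and 5.24% of calls were false. The simulation changed only 200 genes per comparison, with independent normal noise and no other effect of age. Far more genes were called in the data, so these shares need not hold for them. Alternatives covered normalization, the variance prior, the samples, dim genes, the feature per gene, a replicate block and left-out arrays.

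The genes followed and all lists were chosen with earlier results of these data known. The text names the 9 genes, up to 4 called genes with the largest difference per list and comparison, and the most similar genes by course; the rest are marked.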

Additional observations from a re-analysis of the deposited data

How the results depend on the processing

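Over 486 values of single genes under the alternatives, 473 kept their direction and their side of the threshold, 5 no longer passed, 5 newly passed and 3 reversed. Many of these values could not reverse. The variance prior, the replicate block, the gene filter and leaving out arrays of the third age keep the log2 difference as it is. So does the mean of all features, as each gene had 1 such probe set. The reversals were first-week values that had not passed: Lox at -0.14 without 7-day replicate 2 and at -0.28 without 7-day replicates 2 and 3, and Plod2 at -0.046 without both; leaving out 1 array at a time gave -0.14 to 0.52 for Lox. Without both arrays 1 of the 9 genes rose in the first week instead of 4, with 516 genes called in all, and 4156 were called at 10 weeks against 7 days; 1 array is left at 7 days there. Leaving out 1 array at a time gave 1149 to 2316 calls in the first week (1283 without 24-hour replicate 1, 1158 without 24-hour replicate 2, 1149 without 7-day replicate 3, against 2009), 3 to 5 of the 9 genes higher, and 2 to 4 related pairs told apart (4 without 10-week replicate 1). The counts of the 9 genes in both other comparisons, 3 higher and 6 lower, and 3 higher and 5 lower, were the same without any 1 array.

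The replicate numbers shared by the ages did not visibly pair the arrays. With the age mean of each gene taken off, correlations of same-numbered arrays ran from -0.17 to 0.13. Those of differently numbered arrays of different ages ran from -0.22 to 0.25. With the replicate block 1734, 6916 and 7724 genes were called in the order first week, second step and whole span, against 2009, 7165 and 7989, and no call of the 9 genes changed. The cause of these shifts was not tested. Dim signals, such as Lox at 10 weeks and Pcolce2 at 24 hours, limit how large a fold the arrays can show.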

Other observations

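Genes that degrade collagen or restrain its degradation also split between 7 days and 10 weeks. Of 13 such genes 7 fell and 4 rose. Mmp14, a membrane-bound collagenase, fell by 2.30 on the log2 scale (adjusted p = 1.16e-07 by limma), to 6.84 ± 0.17 at 10 weeks, against 9.15 ± 0.18 at 7 days (SD, n = 3). Fap, a fibroblast surface protease, had risen in the first week, to 6.74 ± 0.15 at 7 days, against 4.75 ± 0.15 at 24 hours (adjusted p = 3.97e-06), and then fell by 1.56 (adjusted p = 7.36e-07). Timp4, a metalloproteinase inhibitor of the heart, went the other way: it fell by 1.36 in the first week (adjusted p = 3.10e-04) and rose by 2.62 by 10 weeks (adjusted p = 4.14e-07). Mmp3, a stromelysin, rose by 1.65 between 7 days and 10 weeks (adjusted p = 2.36e-04), with 5.14 ± 0.57 at 10 weeks, against 3.49 ± 0.06 at 7 days. The other rises, of Mmp9 (0.65) and Mmp13 (0.42), were outside the naming rule. On 7-day replicate 1 without replicates 2 and 3, 7 of the 13 still fell and 3 rose.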
